A study of Mus musculus with 32 samples.

Results

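The 10 genes described here encode chaperones of the heat shock family: the inducible HSP70 proteins (Hspa1a and Hspa1b), the constitutive HSP70 (Hspa8), the HSP110 exchange factor (Hsph1), an HSP40 (Dnajb1), the cytosolic HSP90 proteins (Hsp90aa1 and Hsp90ab1), the mitochondrial chaperonin with its lid (Hspd1 and Hspe1) and a small heat shock protein (Hspb1). They were taken by symbol from a matrix of 27998 genes and 5982 cells of the mouse median eminence (ME), and all 10 symbols were found. The genes were selected on their levels by cell type and barcode number in these same data, so the levels below are a description and were not tested. The ME of C57B/L6 male mice aged 40 to 47 days was dissected from 5 animals after an overnight fast of 16 h and from 5 animals given normal chow again for 1 h after the same fast. The tissue of the 5 animals of each condition was pooled, dissociated in papain at 37 °C for 15 to 20 min and sorted for live cells, and each pool was split over 2 droplet libraries that count every captured transcript once, near its 3′ end, by a unique molecular identifier (UMI). Each condition is therefore 1 pool of animals, and its libraries are parts of the same cell suspension. Each cell barcode in the matrix ends in a number from 1 to 4, and the sources used here do not tie a number to a library or a condition. No condition was given to any cell, and the numbers are reported side by side under their own digit, without a mean over them and without a test.

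Heat shock proteins bind unfolded proteins and help them fold, and their genes are the classic targets of heat shock factor 1 (HSF1), which binds inverted repeats of the bases GAA in the promoter. Hspa1a, Hspa1b, Dnajb1 and Hsph1 are known for a low level at rest and a fast rise after heat or other damage to proteins, while Hspa8, Hsp90ab1, Hspd1 and Hspe1 are made in most cells at all times. HSP40 and HSP110 proteins work with HSP70, the first by starting its ATP cycle and the second by exchanging its nucleotide.

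The promoters are shown because they carry the sequence through which these genes are known to respond together. RefSeq promoters of the GRCm38.p6 build (250 bases before to 50 bases after a start site) were given for 7 of the 10 members (Hspa1a, Hspa1b, Hsph1, Dnajb1, Hspe1, Hspd1 and Hspb1), with 10 start sites in all. Capitals mark every match to GAANNTTC or TTCNNGAA, each of which reads the same on both strands. At least 1 match was present in 6 of these 7 members and in 7 of their 10 promoters, against 15.1% of the 32851 promoters of the table. The 13-base form with 3 units, GAANNTTCNNGAA or TTCNNGAANNTTC, was present in 3 members (Hsph1, Hspe1 and Hspd1). It was found in 4 of the 10 promoters, against 0.603% of all promoters. These counts are not of separate sequences, since Hspa1a and Hspa1b have nearly the same promoter and Hspe1 and Hspd1 share the same bases. Neither start site of Dnajb1 held a match to any of these letters within its window. A match is a description of the letters and not a bound site.

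The promoters of Hspa1a at chr17:34972107-34972406 and of Hspa1b at chr17:34959189-34959488, both on the minus strand, were identical at 296 of 300 bases, and each held 1 match, 104 to 97 bases before the start.
Hspa1a: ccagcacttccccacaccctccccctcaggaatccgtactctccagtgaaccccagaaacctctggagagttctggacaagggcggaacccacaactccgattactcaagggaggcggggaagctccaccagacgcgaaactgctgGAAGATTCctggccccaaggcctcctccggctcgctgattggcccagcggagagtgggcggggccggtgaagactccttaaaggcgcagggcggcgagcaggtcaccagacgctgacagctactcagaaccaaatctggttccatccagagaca
Hspa1b: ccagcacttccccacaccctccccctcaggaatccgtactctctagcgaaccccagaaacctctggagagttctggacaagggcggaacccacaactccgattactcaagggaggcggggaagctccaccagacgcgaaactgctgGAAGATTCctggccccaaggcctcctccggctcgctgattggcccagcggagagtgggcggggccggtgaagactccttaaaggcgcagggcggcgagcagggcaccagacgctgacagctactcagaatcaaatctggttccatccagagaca
The promoter of Hsph1 at chr5:149636266-149636565, minus strand, held a match before the start and a 3-unit element after it.
Hsph1: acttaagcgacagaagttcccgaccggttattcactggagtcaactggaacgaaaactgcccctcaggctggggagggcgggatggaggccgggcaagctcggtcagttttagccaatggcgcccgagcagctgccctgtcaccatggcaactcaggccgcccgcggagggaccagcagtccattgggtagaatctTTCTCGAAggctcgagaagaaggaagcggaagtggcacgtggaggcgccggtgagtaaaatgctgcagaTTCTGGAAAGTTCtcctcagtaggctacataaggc
The promoter of Hspe1 at chr1:55087898-55088197, plus strand, held a run of 18 bases made of overlapping 3-unit elements.
Hspe1: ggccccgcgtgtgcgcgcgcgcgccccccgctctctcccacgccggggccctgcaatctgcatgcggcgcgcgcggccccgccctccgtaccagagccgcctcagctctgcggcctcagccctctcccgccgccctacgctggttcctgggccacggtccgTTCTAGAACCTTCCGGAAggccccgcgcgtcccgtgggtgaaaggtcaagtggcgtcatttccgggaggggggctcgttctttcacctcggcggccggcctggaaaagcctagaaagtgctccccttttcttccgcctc
Hspd1 lies head to head with Hspe1, and the same 18 genome bases, at chr1:55088059-55088076, stood 144 to 127 bases before 1 of its 2 start sites.
Hspd1: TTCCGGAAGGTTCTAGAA
The promoter of Hspb1 at chr5:135887669-135887968, plus strand, held 2 matches.
Hspb1: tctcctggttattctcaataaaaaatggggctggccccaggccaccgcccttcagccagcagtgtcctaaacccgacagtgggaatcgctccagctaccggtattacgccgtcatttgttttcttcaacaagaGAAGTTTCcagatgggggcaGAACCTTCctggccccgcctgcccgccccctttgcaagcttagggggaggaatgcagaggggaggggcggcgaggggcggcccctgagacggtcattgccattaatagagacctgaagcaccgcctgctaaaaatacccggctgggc

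The matrix held 29288898 UMIs, with a median of 3837 per cell. Cells were grouped into 25 clusters, and 21 clusters with 5418 cells took the name of 1 of 13 cell types from fixed marker lists: tanycytes, ependymocytes, astrocytes, oligodendrocyte progenitors (OPCs), differentiating OPCs (diffOPCs), mature oligodendrocytes (MOLs), neurons, pars tuberalis cells, endothelial cells, mural cells, vascular and leptomeningeal cells (VLMCs), macrophages and microglia. In each type 8 to 10 of its 10 markers were higher than in any other type, and 1 marker, of pars tuberalis cells, was at 0 UMIs. The 4 unnamed clusters held 561 cells, and 3 further cells, in which haemoglobin genes made up 10% or more of the UMIs, were left out of all types. Barcode numbers 1 to 4 had 1359 to 1642 cells, 6508038 to 7806887 UMIs and a median mitochondrial share of 3.98% to 4.10%. Cell barcode sequences found under more than 1 number numbered 21. Levels are given as UMIs of a gene per 1000000 UMIs of a group of cells (counts per 1000000, CPM), with exact Poisson intervals at the 95% level that cover counting error only. UMIs of 1 cell are not independent, so these intervals are too narrow as a measure of the spread between cells. Cell types were defined from the same UMIs, so a difference between types is also a description.

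The 10 genes together took 4484 CPM of the matrix. Hspa8 gave 49324 UMIs, Hsp90ab1 gave 32155 and Hsp90aa1 gave 28232. The other members gave 8500 (Hspe1), 4822 (Hspd1), 2982 (Dnajb1), 2688 (Hsph1), 1479 (Hspa1a), 1126 (Hspb1) and 32 UMIs (Hspa1b). The precision of the last is low, and 9 of the 10 members passed the minimum of 1000 UMIs set for comparing genes. The summed level was 3633 CPM in barcode number 1, 3469 CPM in number 2, 5458 CPM in number 3 and 5286 CPM in number 4.

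To set aside the different make-up of the barcode numbers (neurons made up 114, 91, 166 and 162 cells of numbers 1 to 4), the CPM of each gene was computed in each cell type and number and averaged with the share of UMIs that each type held in the whole matrix. The ratio of the highest to the lowest number on this standardised scale was at least 1.5 in 4 of the 9 members, Hspa1a, Dnajb1, Hspb1 and Hsph1, and in 1.54% of the 4940 genes with at least 1000 UMIs. The median ratio was 1.37 over the 9 members and 1.12 over the 4940 genes. These values chose the members, and nothing further is read from the count. The ratio of the highest to the median cell type, with 10 CPM added to both, was at least 4 in 2 of the 9 members, Hspb1 and Hsp90aa1, and in 28.1% of the 4940 genes. The plot of levels by cell type gives the CPM behind these ratios.

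**Figure D1:**
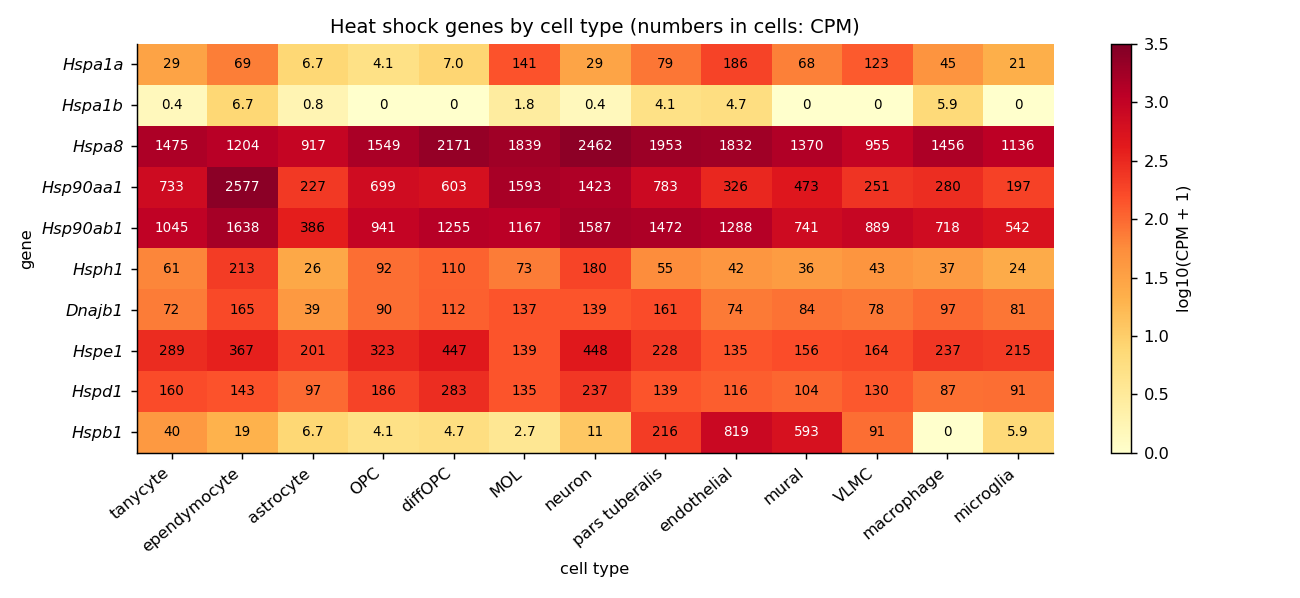
Level of each heat shock gene (rows) in each of the 13 named cell types (columns). Cells of the map give the CPM and the colour its log10 after adding 1. Hspb1 ran from 0 CPM in macrophages to 819 CPM in endothelial cells, while Hspa8 stayed between 917 and 2462 CPM.

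The inducible HSP70 gene Hspa1a lies at chr17:34969190-34972156 on the minus strand. Its level over all cells was 18.7 CPM in barcode number 1, 13.8 CPM in number 2, 86.6 CPM in number 3 and 79.7 CPM in number 4. Number 3 was highest and number 2 lowest, the intervals of numbers 1 and 2 overlapped (15.8 to 21.99 and 11.1 to 17.0 CPM), those of 3 and 4 overlapped (79.9 to 93.6 and 73.5 to 86.2 CPM), and those of 1 and 4 were apart. The standardised ratio of 5.92 was the 6th of the 4940 genes, behind 3 haemoglobin genes and the neuropeptide genes Vip and Avp. The ratios of the 3 haemoglobin genes rest on lowest levels of only 0.107 to 0.308 CPM. At least 1 Hspa1a UMI was found in 7.49%, 4.89%, 19.6% and 18.8% of the cells of numbers 1 to 4. After thinning of every cell to 1000 UMIs the shares were 1.40%, 1.00%, 5.37% and 6.18%, in an order that differed from the unthinned one only between numbers 3 and 4.

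**Figure D2:**
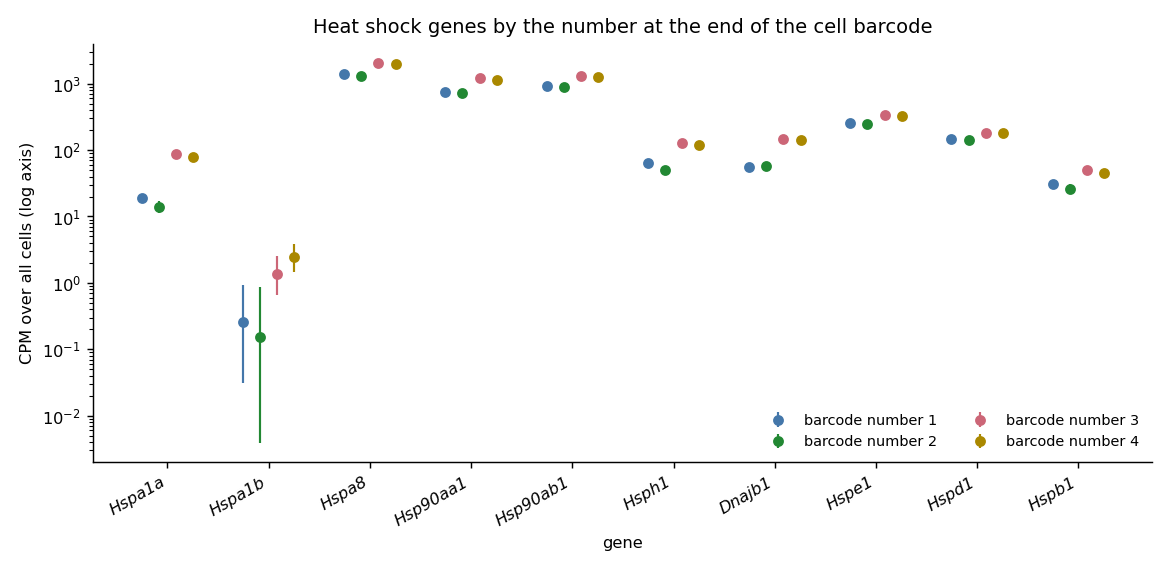
Level of each heat shock gene over all cells by the number at the end of the cell barcode, in CPM on a log axis with exact Poisson intervals at the 95% level (counting error only). The 4 points of Hspa1a run from 13.8 to 86.6 CPM and those of Hspd1 from 144 to 183 CPM.

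By cell type, Hspa1a was highest in endothelial cells (186 CPM, interval 133 to 253), MOLs (141 CPM, 129.9 to 152) and VLMCs (123 CPM, 100.2 to 149.7), and lowest in OPCs (4.07 CPM, 1.32 to 9.50), astrocytes (6.65 CPM) and diffOPCs (7.03 CPM). MOLs, the cells that make myelin, held 626 of the 1479 UMIs, while the progenitors of the same lineage had the lowest level. The value of endothelial cells rests on 40 UMIs, of which none were in the 22 cells of number 1. Intervals overlapped in 11 of the 12 pairs of neighbours in the order of types, so most of the order is not resolved by these counts. Without the cells of barcode number 3, the ratio of the highest to the median type fell from 3.54 to 1.75.

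Within MOLs, Hspa1a was at 11.1 CPM in number 1, 12.7 CPM in number 2, 255 CPM in number 3 and 244 CPM in number 4. The ratio of the highest to the lowest number was 22.9, the largest of the 9 cell types that had at least 20 cells and a UMI in each number, whose median ratio was 9.16. In tanycytes, which line the floor of the ventricle, the level was 29.4, 18.4, 35.5 and 34.0 CPM, a ratio of 1.93. Neurons had 12.4, 9.11, 42.5 and 35.7 CPM, and ependymocytes, the ciliated cells of the ventricle wall, had 29.4, 12.7, 72.0 and 116 CPM. In VLMCs number 3 stood alone at 308 CPM, against 51.1, 14.7 and 95.3 CPM in numbers 1, 2 and 4, but 57 of its 72 VLMCs had no UMI and the top 10% of them held 89.9% of its UMIs. In macrophages number 4 stood alone at 191 CPM, against 25.6, 19.0 and 16.8 CPM. Whether the ratios of these types differ was not tested, since each value is 1 barcode number.

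**Figure D3:**
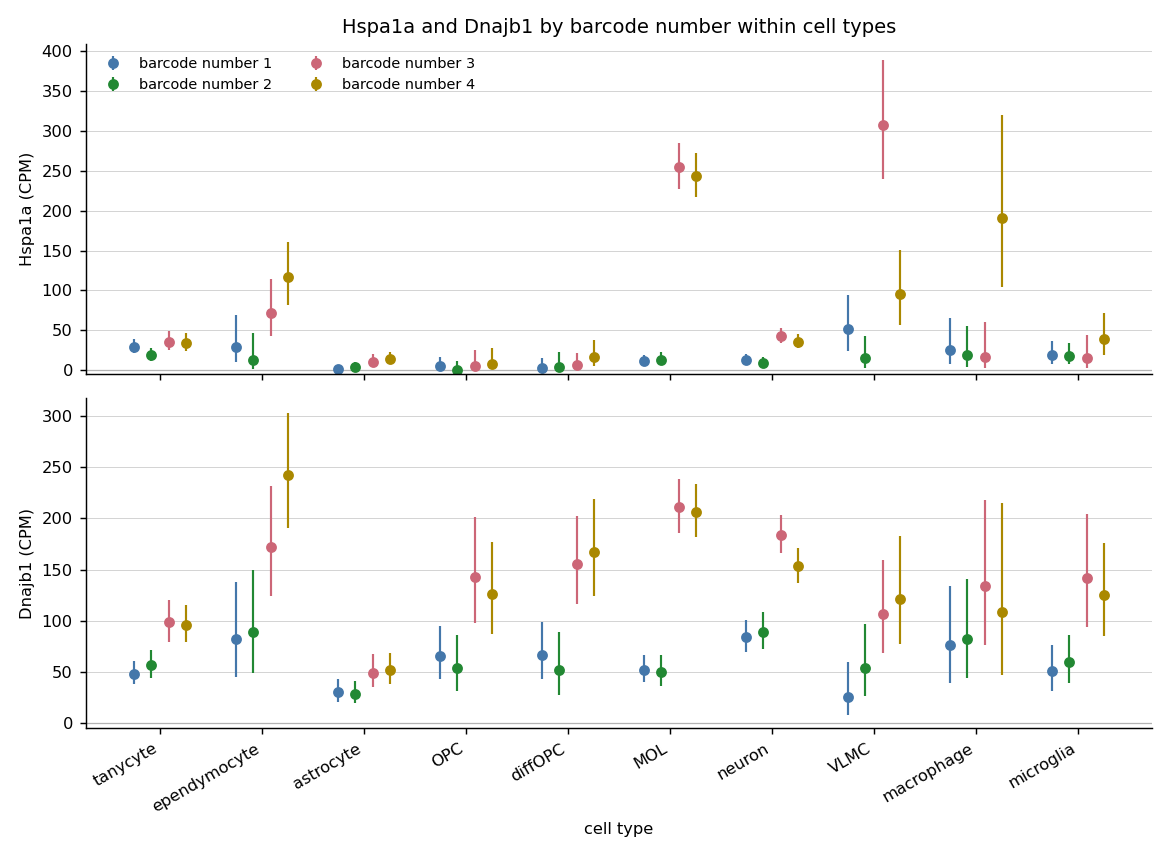
CPM of Hspa1a (upper panel) and Dnajb1 (lower panel) in each barcode number within the 10 cell types that had at least 20 cells in each number, with exact Poisson intervals at the 95% level. In MOLs, Hspa1a ran from 11.1 to 255 CPM and Dnajb1 from 49.7 to 211 CPM. In macrophages only number 4 was above 100 CPM for Hspa1a.

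Counted per cell, 93.6% of the 172 MOLs of number 1, 94.5% of the 128 of number 2, 54.5% of the 178 of number 3 and 57.1% of the 177 of number 4 had no Hspa1a UMI. In numbers 3 and 4, 8 MOLs each had 10 or more UMIs, with 24 and 19 in the highest cell, while no MOL of number 1 or 2 had more than 5. More cells held the transcript and single cells held more of it. The top 10% of MOLs by Hspa1a held 61.5% of its UMIs in number 3 and 60.5% in number 4. After thinning to 1000 UMIs, the variance of Hspa1a per cell was 2.02 times its mean in MOLs, 2.83 times in VLMCs and 4.86 times in endothelial cells, where independent counting gives a value near 1. These were 3 of the 4 pairs of member and cell type that reached 2, and the other was Hspb1 in pars tuberalis cells at 2.41. The endothelial value rests on 17 UMIs, of which 8 were in 1 cell. At 2000 UMIs the values for Hspa1a were 2.15 in MOLs, 4.51 in VLMCs and 2.92 in endothelial cells, so the order of these types is not resolved.

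**Figure D4:**
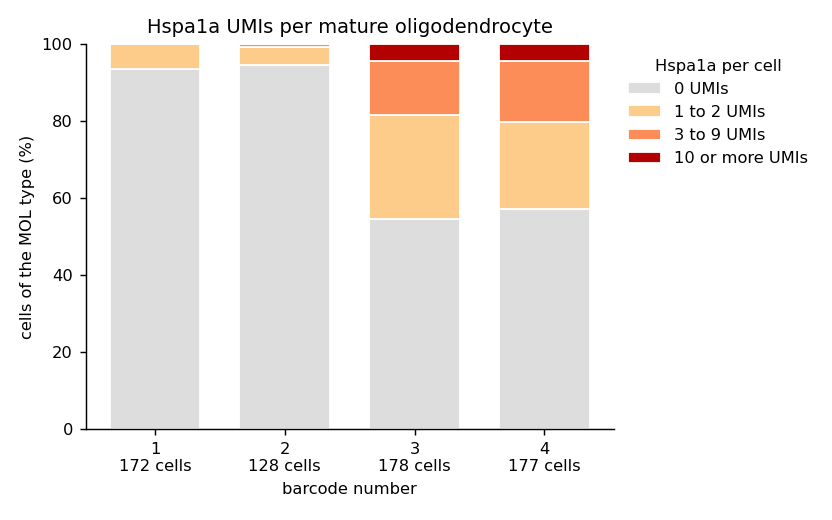
MOLs of each barcode number split by their Hspa1a UMIs per cell, as a percent of the cells (bars run from 0 to 100%). Cells without a UMI make up 93.6% and 94.5% of numbers 1 and 2 and 54.5% and 57.1% of numbers 3 and 4, and 8 cells each of numbers 3 and 4 held 10 or more.

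MOLs comprised 2 clusters. The smaller one, of 128 cells led by the myelin genes Mag and Opalin, had 263 CPM of Hspa1a (235 to 293), and the larger one, of 527 cells led by Hapln2 and Klk6, had 94.9 CPM (84.6 to 106). In the first, numbers 1 to 4 had 25.1, 32.7, 455 and 431 CPM, and in the second 6.75, 4.84, 192 and 152 CPM. The order between the clusters was therefore the same within each number. The 78 mural cells, which wrap the vessels, were at 75.2, 53.4, 73.1 and 69.5 CPM, from 4, 3, 5 and 5 UMIs, and their intervals overlapped one another.

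Hspa1b, the neighbouring copy at chr17:34956436-34959238, encodes nearly the same protein as Hspa1a. It had 2, 1, 10 and 19 UMIs in numbers 1 to 4, which is 0.256, 0.154, 1.38 and 2.46 CPM. It made up 2.12% of the UMIs of the pair (exact Clopper-Pearson interval 1.45% to 2.98%), or 1 Hspa1b UMI for 46.2 of Hspa1a. Hspa1a was above Hspa1b in every barcode number in 8 of the 10 cell types with at least 20 cells per number, while OPCs had no UMI of either gene in number 2 and macrophages had the same count of both in number 3. Of the 30 cells with an Hspa1b UMI, 14 also had one of Hspa1a, which was found in 742 cells. In the reference transcripts (GENCODE vM21), none of the 76-base stretches within the last 500 bases of either gene occurred in the other, and 7.46% of those within the last 1000 bases of Hspa1a and 19.0% of those of Hspa1b did. How the authors' counting treated reads that match both genes is not given in the sources used here, so the split of the pair is uncertain for reads outside the last 500 bases. Hspa1a also overlaps the gene model Gm20481 on the opposite strand, which had 1 UMI.

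Hspa8, the constitutive HSP70 that also strips the coat from vesicles, lies at chr9:40800984-40810087. Its level was 1379, 1327, 2017 and 1981 CPM in numbers 1 to 4. Number 3 was highest and number 2 lowest on this crude scale, and the standardised ratio, of number 4 to number 2, was 1.37. By cell type it was highest in neurons (2462 CPM, 2425 to 2500.2) and diffOPCs (2171 CPM, 2091 to 2253), whose intervals were apart, and lowest in astrocytes (917 CPM, 887 to 948) and VLMCs (955 CPM, 889 to 1025). VLMCs also had the widest range between numbers, with 629, 451, 1411 and 1297 CPM, and neurons the narrowest, with 2377, 2248, 2579.7 and 2510.3 CPM. Within MOLs it was at 1481, 1426, 2097 and 2218 CPM. At least 1 UMI of Hspa8 was present in 94.9% of all cells. The shares were 92.0%, 92.0%, 98.2% and 97.9% in numbers 1 to 4, and 62.4%, 63.2%, 77.2% and 78.9% after thinning to 1000 UMIs.

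Dnajb1, an HSP40 cochaperone, lies at chr8:83608193-83612653. It was at 56.0, 58.1, 145 and 144 CPM in numbers 1 to 4, with a standardised ratio of number 4 to number 1 of 2.43, the 14th of the 4940 genes. Number 3 was highest and number 1 lowest over all cells, and the intervals of numbers 1 and 2 overlapped, as did those of numbers 3 and 4. Over the 10 cell types with at least 20 cells per number, its ratio between numbers ran from 1.75 in macrophages to 4.77 in VLMCs. The macrophage values rest on 12, 13, 16 and 8 UMIs, and their intervals overlapped one another. In VLMCs the lowest number held 5 UMIs. In MOLs it had 52.2, 49.7, 211 and 207 CPM. In neurons it had 84.4, 89.3, 184 and 154 CPM, and in astrocytes 30.5, 29.0, 49.3 and 51.9 CPM. In microglia, in which Hspa1a had 18.4, 17.0, 15.2 and 39.1 CPM, Dnajb1 had 50.7, 59.6, 142 and 125 CPM. Ependymocytes (165 CPM) and pars tuberalis cells (161 CPM) were highest and astrocytes (39.2 CPM, 33.2 to 45.9) lowest. Pars tuberalis cells, of which a number held 12 to 28, ran from 23.2 CPM in number 2 to 387 CPM in number 4, and without the called doublets they took the first place.

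Hsph1, an HSP110, lies at chr5:149614287-149636376. Its level was 63.3, 51.0, 129 and 119.7 CPM in numbers 1 to 4, and its standardised ratio was 2.02. Number 3 was highest and number 2 lowest, and the intervals of numbers 1 and 2 were apart as well. Ependymocytes (213 CPM, 184 to 246) and neurons (179.8 CPM, 169.8 to 190.2) stood above all other types, of which diffOPCs came next with 110.1 CPM (92.7 to 129.8), and microglia were lowest with 23.6 CPM. In ependymocytes the numbers had 135, 133, 308 and 220.1 CPM, and in neurons 151, 122, 218 and 190.1 CPM. In macrophages the ratio of 21.5 rests on 19 UMIs in all.

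Of the HSP90 genes, which fold kinases and steroid receptors, the inducible Hsp90aa1 lies at chr12:110690605-110702728 and the constitutive Hsp90ab1 at chr17:45567775-45573271. Hsp90aa1 was at 762, 716, 1201 and 1154 CPM in numbers 1 to 4, and Hsp90ab1 at 921, 887, 1312 and 1253 CPM. Number 3 was highest and number 2 lowest for both on this crude scale. The standardised ratio was 1.37 for Hsp90aa1, of number 3 to number 1, and 1.30 for Hsp90ab1, of number 3 to number 2. Hsp90aa1 was highest in ependymocytes (2577 CPM, 2473 to 2684), followed by MOLs (1593 CPM, 1556 to 1630.4) and neurons (1423 CPM, 1395 to 1452), with no overlap between these intervals, and microglia (197 CPM), astrocytes (227 CPM) and VLMCs (251 CPM) were lowest. Its ratio of the highest to the median type was 4.22. Hsp90ab1 was highest in ependymocytes (1638 CPM, 1555 to 1724) and neurons (1587 CPM, 1557 to 1617), whose intervals overlapped, and its ratio was 1.56. Endothelial cells were 9th of the 13 types for Hsp90aa1 (326 CPM) and 4th for Hsp90ab1 (1288 CPM). In ependymocytes Hsp90aa1 had 2132, 2141, 2864 and 2805 CPM in numbers 1 to 4. Neurons had the narrowest range between numbers for both genes, with ratios of 1.28 and 1.14.

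The mitochondrial pair is transcribed from a shared region, with gene models on opposite strands (Hspe1 at chr1:55088132-55091307, Hspd1 at chr1:55077835-55088243) that overlap by 112 bases. Hspe1 was at 253, 245, 334 and 324 CPM in numbers 1 to 4 and Hspd1 at 149, 144, 181 and 183 CPM. Their standardised ratios of 1.249 and 1.18 were the smallest of the 9 members. Neurons (448 CPM) and diffOPCs (447 CPM) were highest for Hspe1 with overlapping intervals, and diffOPCs (283 CPM, 255 to 314) were above neurons (237 CPM, 225 to 249) for Hspd1. Endothelial cells (135 CPM) and MOLs (139 CPM) were lowest for Hspe1, and macrophages (86.8 CPM) and microglia (90.6 CPM) for Hspd1. Within MOLs Hspe1 had 104, 103, 172 and 164 CPM and Hspd1 102, 138, 146 and 153 CPM.

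Hspb1, a small heat shock protein that binds actin filaments and is common in muscle and vessels, lies at chr5:135887919-135889563. It was highest in endothelial cells (819 CPM, 702 to 949) and mural cells (593 CPM, 501 to 696), then in pars tuberalis cells (216 CPM, 177 to 261), VLMCs (91.1 CPM, 71.5 to 114) and tanycytes (39.6 CPM, 34.2 to 45.7). No UMI was found in 142 macrophages, for which the exact upper limit is 7.28 CPM, and MOLs had 2.697 CPM (1.39 to 4.71). After thinning to 1000 UMIs, 45.2% of endothelial cells and 28.2% of mural cells had a UMI, against 0.305% of MOLs. Over all cells the numbers had 30.9, 26.3, 49.8 and 45.7 CPM, and the standardised ratio was 2.20. In endothelial cells the numbers had 738, 566, 1279 and 874 CPM, and in mural cells 564, 231, 497 and 987 CPM. Pars tuberalis cells had 229, 58.0, 365 and 138 CPM. These types had fewer than 20 cells in at least 1 number. In mural and pars tuberalis cells, numbers 3 and 4 were not both above numbers 1 and 2. In VLMCs, with 64, 71, 72 and 61 cells, the numbers had 46.0, 63.8, 129 and 122 CPM, and in tanycytes 32.8, 33.4, 53.8 and 42.8 CPM. Among the tanycyte clusters, the 89 cells led by Scn7a and Fndc3c1 had 92.4 CPM (67.4 to 124), above the 659 cells led by Kctd14 and Rax (40.9 CPM, 33.2 to 49.7) and the 386 cells led by Frzb and Crym (24.2 CPM, 17.7 to 32.4). The unnamed cluster led by Gfap and Tgfb2 also held it (78.8 CPM).

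Other chaperone genes were read from lists. Of 24 cytosolic cochaperones and heat shock factors with at least 1000 UMIs, 2 were past 1.5 between numbers, and the median ratio was 1.16. Ahsa2, an activator of the HSP90 ATPase, had a standardised level of 26.7, 30.2, 56.2 and 57.5 CPM in numbers 1 to 4 (ratio 2.15). Chordc1, an HSP90 cochaperone, had 33.0, 33.9, 51.4 and 52.7 CPM (ratio 1.60), and Hspa4l, a further HSP110, reached 1.43. By cell type, Cryab, a small heat shock protein, had 3705 CPM in MOLs against a median type of 142 CPM, and Hspa2, an HSP70 without heat induction, 773 CPM in ependymocytes against 65.1 CPM. Of 17 genes of the endoplasmic reticulum, where the secreted proteins fold, 1 was past 1.5 (Atf4, a transcription factor of the integrated stress response, 1.57), followed by Creld2 (1.37) and Hspa5 (1.36), and their median was 1.16. Of these 17, Sdf2l1 (4.96, highest in microglia) and Dnajc3 (3.12) had the highest ratios between cell types.

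None of 8 mitochondrial chaperones and proteases (median 1.13, with Htra2 highest at 1.26, then Clpx at 1.16 and Yme1l1 at 1.15) and none of 13 subunits of the chaperonin CCT and of prefoldin (median 1.08, with Cct4 highest at 1.24, then Cct7 and Cct8, both at 1.10) were past 1.5. Between cell types, Htra2 (1.91) and Yme1l1 (1.72) led the first list and Pfdn2 (2.696) and Pfdn4 (2.63) the second. Immediate early genes respond within minutes to many stimuli including dissociation. Of the 20 listed, 9 had at least 1000 UMIs. None of these 9 was past 1.5, with Dusp1 (1.48), Fos (1.44) and Ier2 (1.35) highest and a median of 1.28. Of the sparser ones, Socs3 (2.39, 818 UMIs), Fosb (2.01, 272), Atf3 (2.00, 312) and Nfkbiz (1.71, 128) were past 1.5, and the others were not. Dusp1 was at 61.1, 47.8, 41.4 and 58.8 CPM in numbers 1 to 4 and Fos at 138, 145, 179 and 199 CPM, so the number that was highest differed between them. These genes differed more between cell types, 8 of 9 past a ratio of 4, with Klf2 highest in endothelial cells (2716 CPM) and Junb in pars tuberalis cells (1626 CPM). Of the genes chosen as a sign of free RNA, from red cells and from neuropeptide neurons, all 10 with at least 1000 UMIs were past 1.5 (1.57 to 109). Hbb-bs, Hba-a1 and Hba-a2 led (109, 67.4 and 30.4), but their lowest standardised levels were only 0.292, 0.107 and 0.308 CPM. The cells left out for their haemoglobin count towards the 1000 UMIs of these genes but not towards these levels. Between cell types Cck and Pomc led (352 and 118), and both were highest in pars tuberalis cells (7404 and 3157 CPM), not in neurons. In microglia, which do not make neuropeptides, the neuropeptide genes of this list summed to 274, 347, 339 and 429.7 CPM in numbers 1 to 4, and the haemoglobin genes to 16.1, 17.0, 0 and 85.9 CPM. Their part in the levels of the heat shock genes was not tested.

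**Figure D5:**
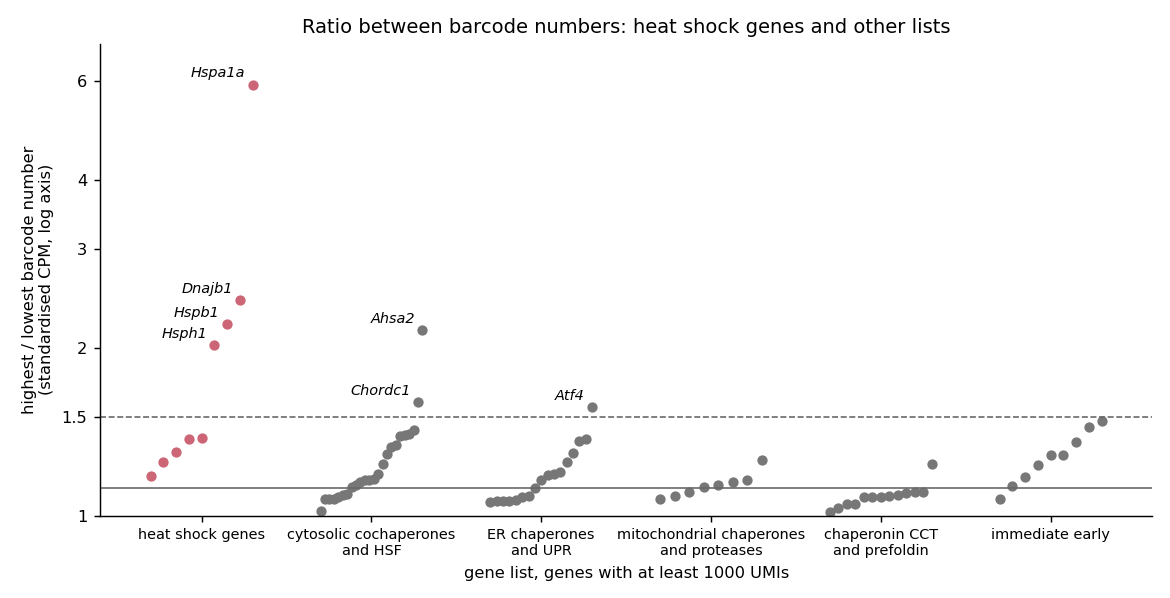
Ratio of the highest to the lowest barcode number (standardised CPM, log axis) of the 9 heat shock genes (red) and of the genes of 5 other lists (grey), each with at least 1000 UMIs and sorted by ratio within a list. The dashed line is a ratio of 1.5, the solid line the median of 4940 genes (1.12). Genes past 1.5 are named: 4 of the heat shock genes, 2 cytosolic cochaperones and 1 of the endoplasmic reticulum. The list of genes chosen as a sign of free RNA is not shown. All 10 of its genes with at least 1000 UMIs were past 1.5 (1.57 to 109).

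The pattern most like that of the inducible HSP70 pair was sought over the 40 groups of cell type and barcode number, as Pearson's r of log2(CPM + 10) after the mean of each type was taken away. These groups share barcode numbers and depth, and r is a description. Among the members r was 0.91 for Hspe1, 0.76 for Hspa8, 0.72 for Dnajb1, 0.68 for Hsph1, 0.66 for Hsp90ab1 and Hsp90aa1, 0.54 for Hspb1 and 0.38 for Hspd1. Outside them, Manf (0.74) and Hspa5 (0.71), both of the endoplasmic reticulum, P4ha1 (0.69), Rtn1 (0.68) and Hsbp1 (0.67) were highest. Over the 13 cell types the order was another one, with r of 0.59 for Hspb1, 0.05 for Hspa8 and -0.63 for Hspe1. The genes most like the pair over cell types were Cstb (0.87), Capns1 (0.84), Plin3 (0.83), Chmp3 (0.78) and Stx4a (0.77).

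Within a barcode number, the MOLs with an Hspa1a UMI did not have a higher mean of every other member. After thinning to 2000 UMIs, the 47 of 176 MOLs of number 4 with an Hspa1a UMI had a mean of 0.511 Dnajb1 UMIs against 0.271 in those without, and 4.62 Hsp90aa1 UMIs against 3.54. In number 3 the 45 of 178 cells with a UMI had 0.467 Dnajb1 UMIs against 0.338, and 4.11 Hsp90aa1 UMIs against 3.74. For Hsph1 the means were 0.213 and 0.202 in number 4 and 0.0667 and 0.128 in number 3, lower in the cells with Hspa1a in number 3. Hspe1 was lower in the cells with Hspa1a in both numbers, with means of 0.267 against 0.444 UMIs in number 3 and 0.340 against 0.380 UMIs in number 4. Both Hspa1a and Dnajb1 were found in 10.8% of these cells in number 4, where the product of their shares is 7.43%, and in 7.87% in number 3, where it is 7.39%.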

How the data were processed

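Single-cell RNA-seq libraries of the ME from pools of 5 fasted and 5 refed mice were made with 10x 3′ V2 chemistry. The authors deposited a matrix of UMI counts per gene and cell, made with Cell Ranger 2.0 on mm10 per the submitters' processing notes. The gene annotation release and the calling of cells are not given in the sources used here. All 32 sample records share this 1 matrix, and no column of samples was left unused (0). The condition of a cell was not assigned, since its barcode number (1 to 4) is not tied to a library, so no comparison between conditions and no test was made.

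Cells were clustered with scanpy 1.11.5 (2000 variable genes, 30 components, 15 neighbours, Leiden resolution 1) and named from 13 marker lists. Scrublet called 50 doublets (0.836%), which were kept. CPM, exact intervals at the 95% level, shares after thinning to 1000 UMIs per cell and levels standardised to the UMI shares of the cell types were computed, and the steps were tested on simulated data. Cells differed in depth (median 3518 to 4057 UMIs by number), and a gene with few UMIs has a wide interval.

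The members, gene lists and thresholds (1000 UMIs, a ratio of 1.5 between numbers and 4 between types, with 10 CPM added) were chosen with earlier results of these data known. Genes outside the members were named by rule: from each list the 3 with the highest ratio between numbers and the 2 with the highest ratio between types, and the 5 most like the Hspa1a and Hspa1b sum by each measure. The immediate early genes below 1000 UMIs that were past 1.5 were named in addition. Alternatives were other clusterings, filters, depths, folds and pseudocounts, and leaving out each number.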

Additional observations from a re-analysis of the deposited data

How the results depend on the processing

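Over the alternatives tried, 42 of 51 values of the comparisons stayed within the bounds set for them and 9 moved. For a count the bound was a change of at most 1.5-fold, so 4 members becoming 6 counted as within. For the summed level it was the Poisson interval. A gene minimum of 200 UMIs could not change the count of members, since the only one left out, Hspa1b, has 32 UMIs. The tally depends on these choices. Thinning every cell to 1000 UMIs moved the summed level of the members from 4484 to 3727 CPM, and leaving out 1 barcode number at a time gave 4164 to 4794 CPM. Hspa1a was above Hspa1b in every number in 3 of 10 cell types after thinning and in 3 of the 3 types with enough cells after K-means with 9 clusters, against 8 of 10. A lower threshold for the ratio between numbers was passed by 7 members (10.1% of all genes), and a ratio of 2 between types by 5 (55.3%), which follows from the lower thresholds. The 4 members past 1.5 became 6 without standardisation to cell types (7.41% of all genes) and 5 with K-means (6.09%) or thinning (9.39%), and were 4 in number without each barcode number (1.05% to 1.23%), against 1.54% as reported. The members past 4 between types were 2 or 3. Hspa1a passed without number 1 (4.03, with 27.8% of all genes past 4) or number 2 (4.42, 28.0%), after thinning (5.31, 27.9%) and with 1 CPM added (4.03, 31.1%), and Hsph1 passed with the filter on UMIs and mitochondrial share (4.21, 28.1%), against 28.1% of all genes as reported. The highest type by the share of thinned cells with a UMI was pars tuberalis for Hspa1a, neurons for Hsp90ab1 and diffOPCs for Hspe1. Pairs of member and type with a variance of at least 2 times the mean rose from 4 to 6 at 2000 UMIs. Of the members' own ratios, 19 of 119 between numbers and 15 of 130 between types moved, and the rest did not. Ratios of the highest to the lowest or median group cannot show a change of direction. After thinning, the ratio between numbers gave no value for Hspa1b, Hba-a1 and Hba-a2, which had no UMI left in the named cell types of at least 1 number. The cause of these shifts was not tested. No paired analysis was possible because the barcode numbers carry neither a condition nor a replicate number of the labels. Hspa1b, with 32 UMIs, is too sparse for an order within cell types.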

Other observations

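The barcode numbers fell into a pair with lower and a pair with higher levels of the heat shock genes, and no condition is known for either pair. The summed level of the members was 3633 and 3469 CPM in numbers 1 and 2 and 5458 and 5286 CPM in numbers 3 and 4. On the standardised scale both of numbers 3 and 4 were above both of numbers 1 and 2 for 9 of 9 members, and for 1501 of 4940 genes (30.4%), with the opposite for 1090 genes (22.1%). Within the 10 cell types with enough cells, this held in 10 of 10 types for Hspa8, Hsp90aa1, Hsp90ab1, Hsph1 and Dnajb1, in 9 for Hspe1, in 7 for Hspa1a and Hspb1, in 6 for Hspd1 and in 4 for the sparse Hspa1b. The types in which it did not hold for Hspa1a were OPCs, macrophages and microglia. The larger microglial cluster of 358 cells led by Selplg and P2ry12 had 2.75, 15.3, 15.8 and 41.3 CPM. All 60 microglia of number 3 held only 3 Hspa1a UMIs, so the order of numbers 2 and 3 in this cluster is not resolved. The members were chosen on these same levels, and the split was described with the values known. The cell types come from the same pools, so they are not repeats. No share over all genes is given for the counts of types, and nothing further is read from them.

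Among the 76 genes past 1.5 between numbers, some outside all lists followed the same split or its reverse, and these were chosen after their values were seen. Serpinh1, the collagen chaperone of the endoplasmic reticulum, had a standardised level of 92.1, 87.2, 137 and 142 CPM in numbers 1 to 4. Slc7a11, a cystine transporter, had 70.8, 70.4, 119.8 and 108 CPM, and Jmjd6 had 42.6, 48.9, 71.5 and 64.5 CPM. Numbers 1 and 2 were the higher ones for 3 others. Sgk1, a kinase, had 332, 338, 171 and 169.6 CPM, Ddit4, an inhibitor of mTORC1 signalling, had 148, 159, 76.2 and 90.9 CPM, and Nfkbia, an inhibitor of NF-kB, had 124, 128, 74.1 and 69.9 CPM.

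In an immediate early cluster of 46 microglia led by Ccl4 and Junb, Hspa1a had 52.9 CPM (24.2 to 100.5), from 99.7 CPM in the 19 cells of number 1 and 25.3 CPM in the 21 cells of number 2, while numbers 3 and 4 had 2 and 4 cells and no UMI. In the 62 neurons led by Npy and Agrp, which promote feeding, Hspa1a had 3.89, 5.52, 85.4 and 52.0 CPM in numbers 1 to 4. In the 381 neurons led by Sst and Gal it had 16.1, 11.2, 32.7 and 35.4 CPM. All neurons of numbers 1 and 2 together with these clusters held only 17 and 10 Hspa1a UMIs, so the low values of both clusters rest on few counts. Whether the clusters differ in their range between numbers was not tested.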
